A study of Mus musculus with 10 samples.

Results

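*Rnf169* and 6 other genes of the RNF8-RNF168 response to DNA double-strand breaks (*Rnf168*, *Rnf8*, *Trp53bp1*, *Mdc1*, *Herc2* and *Usp7*) were followed in the prefrontal cortex (PFC) of *Zbtb16* knockout (KO) and wild-type (WT) mice. The 7 genes were taken by name from the 22000 genes in the deposited table. *Rnf169* was selected on its KO-WT difference in these same libraries, so its values in that contrast are a description and carry no test. The other 6 were listed for their place in the pathway, and all 7 passed the filter on low counts, which kept 14344 genes.

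A KO mouse was homozygous for *lu*, a spontaneous nonsense allele of *Zbtb16*, in the strain B6.C3-Zbtb16 lu/J, and a WT mouse carried no *lu* allele. The allele is present in every cell of the body from conception, so no tissue or stage was targeted. The RNA came from the PFC of 5 KO and 5 WT mice aged 7 weeks and labelled male, with 1 stranded mRNA library per mouse. Whether the sequenced mice were littermates is not given in the sources used here.

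Ends of a broken DNA double strand are marked by phosphorylated histone H2AX, which is bound by the scaffold protein MDC1. MDC1 recruits the ubiquitin ligase RNF8, whose products are read by RNF168, and RNF168 then ubiquitinates histone H2A to create the binding site of 53BP1 (*Trp53bp1*), a protein that favours end joining over recombination. RNF169 is a paralogue of RNF168 that binds the same ubiquitinated chromatin and competes with 53BP1 there. HERC2 assists the assembly of RNF8 with its ubiquitin-conjugating enzyme, and USP7 is a deubiquitinase that stabilizes several of these proteins. Most neurons no longer divide and depend largely on end joining to repair such breaks.

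The libraries held 30220122 to 51231439 counts, and 3 counts, the floor of detection, stood for 0.0586 to 0.0993 CPM, a gene's count scaled to the size of its library. These floors cover counting error only. *Zbtb16* itself (GRCm38, chr9:48654297-48836222) fell from 79.0 ± 7.23 CPM in WT to 47.4 ± 4.96 CPM in KO (SD, n = 5 per genotype). Its log2 fold change was -0.67, at an adjusted p of 2.8e-05 (edgeR's quasi-likelihood test, adjusted by Benjamini and Hochberg), and the groups did not overlap. The KO mouse 3 library held 1 count in all of *Uty*, *Kdm5d*, *Eif2s3y* and *Ddx3y*, which are 4 genes of the Y chromosome, against 4376 to 8182 in the other 9 libraries, so this library went against its male label. RNA integrity numbers (RIN) were 9.5 to 9.8 in 6 mice and 8.1 to 8.3 in the other 4, which were KO mice 3 and 5 and WT mice 3 and 4. The excitatory neuron markers *Slc17a7* (1668 CPM in KO and 1560 CPM in WT), *Camk2a* (4073 and 3742) and *Tbr1* (172.3 and 171.6) were present in both genotypes. In bulk tissue, fewer cells of a type and less RNA per cell cannot be told apart.

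The sequence before the start of *Rnf169* is shown because this was the only one of the 7 genes whose level separated the genotypes. *Rnf169* lies on the minus strand of chromosome 7 (GRCm38, chr7:99920254-99980448, ENSMUSG00000058761.5). The RefSeq promoter window of 250 bases (GRCm38.p6, chr7:99980459-99980708, minus strand) is printed 5′ to 3′, with GC boxes in capitals.
Rnf169 promoter: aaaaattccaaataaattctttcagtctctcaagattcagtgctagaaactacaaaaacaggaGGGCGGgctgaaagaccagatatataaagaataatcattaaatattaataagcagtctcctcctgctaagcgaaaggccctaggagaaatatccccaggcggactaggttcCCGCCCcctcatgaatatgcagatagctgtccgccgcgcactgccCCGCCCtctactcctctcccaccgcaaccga
GC boxes were searched as GGGCGG and its reverse complement CCGCCC, which do not overlap each other here, and such letters are a description, not a proven binding site. The window held 3 of them, 10 CpG dinucleotides and 47.2% GC. At least 1 such box was present in 32.7% of 32851 mouse promoter windows of that length, and 8.47% held 3 or more. The windows of *Rnf168*, *Rnf8* and *Trp53bp1* held 1 box each, that of *Mdc1* held 0, and that of *Usp7* held 7. *Herc2* had a pair of windows, which held 1 and 3.

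*Rnf169* was higher in every KO mouse than in any WT mouse. Its levels in KO mice 1 to 5 were 94.1, 85.8, 97.6, 89.1 and 97.9 CPM. In WT mice 1 to 5 they were 72.3, 70.9, 72.9, 69.2 and 69.7 CPM. The lowest KO mouse, mouse 2, stood above the highest WT mouse, mouse 3, and the 5 WT mice lay close together while the KO mice were spread more widely. The means were 92.9 ± 5.31 CPM in KO and 71.0 ± 1.58 CPM in WT (SD, n = 5 each), and the fitted log2 fold change was 0.39 with an SE of 0.04, a fold of 1.31. Groups that do not overlap were found for 1.58% of the 14344 genes tested, but the choice of *Rnf169* used this contrast, so nothing is read from that share.

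The mRNA of *Rnf169* was measured from 2175 to 5066 reads per library. The coefficient of variation (SD as a percentage of the mean) was 2.22% among WT mice, where counting error alone gives 1.98%, and 5.72% among KO mice, where it gives 1.74%. Over all genes tested the median was 7.60% in WT and 8.76% in KO. A smaller WT coefficient than that of *Rnf169* was found for 3.41% of the genes. None of the 7538 different stretches of 101 bases, the read length, in the annotated transcripts of *Rnf169* occurred in a transcript of another gene. The longest run of bases that *Rnf169* and its paralogue *Rnf168* share in their transcripts was 14, so a whole read could not have come from both.

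**Figure D1:**
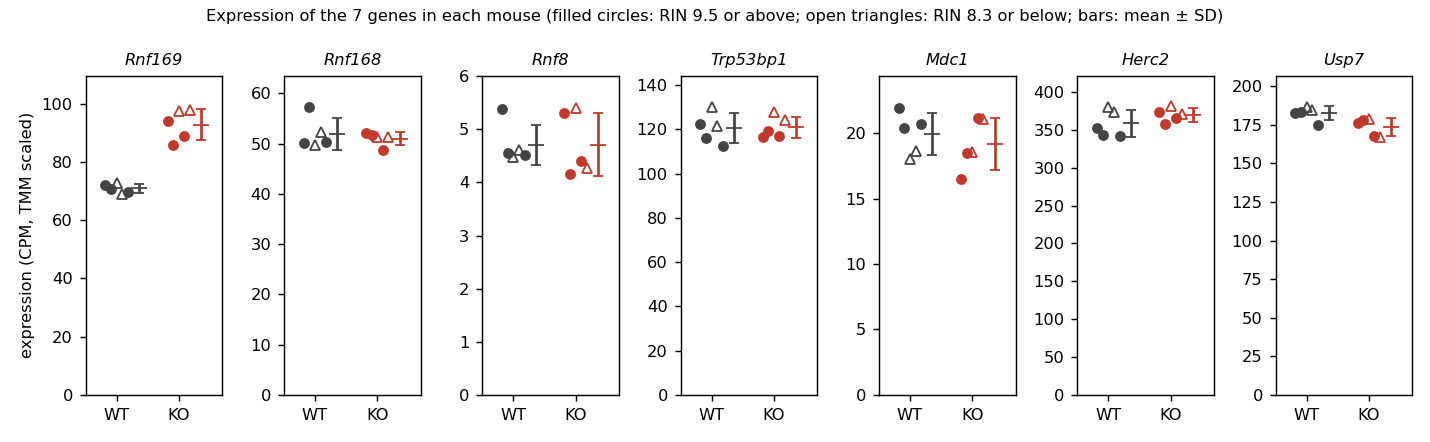
CPM of each of the 7 genes in 5 WT and 5 KO mice, on axes that start at 0; filled circles are libraries with a RIN of 9.5 or above, open triangles those with 8.1 to 8.3, and bars give the mean ± SD. The KO points of *Rnf169* (85.8 to 97.9 CPM) all lie above its WT points (69.2 to 72.9 CPM), while the points of the other 6 genes overlap.

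The difference in *Rnf169* was present in both RIN classes. Among libraries with a RIN of 9.5 or above the means were 89.7 CPM in 3 KO mice and 71.0 CPM in 3 WT mice, a log2 difference of 0.33. Among the other 4 libraries they were 97.7 CPM in KO mice 3 and 5 and 71.0 CPM in WT mice 3 and 4, a log2 difference of 0.46. The highest KO values were thus those of the pair of KO libraries with low RIN, and the WT values of both classes overlapped. Without KO mice 3 and 5 the log2 fold change was 0.36 (SE 0.05), and without KO mouse 3 alone it was 0.37 (SE 0.04). Over 22 other ways of fitting the data it ran from 0.34, with only the libraries of high RIN, to 0.40, and it was positive in all 22.

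Neurons of the striatum, which adjoins the dissected area, express another set of genes. Of these striatal markers, *Ppp1r1b* had 125.7 CPM in KO and 112.4 CPM in WT, *Penk* had 51.9 and 46.9 CPM, *Rgs9* had 18.6 and 15.5 CPM, and *Adora2a* had 5.04 and 4.46 CPM. None of these 4 passed edgeR's quasi-likelihood test. WT mouse 5 was the highest of all mice for each, at 169.6, 85.6, 30.9 and 12.8 CPM in that order. The other WT mice had 83.5 to 116.7, 35.5 to 40.1, 10.7 to 12.6 and 1.61 to 2.76 CPM. KO mice had 103.6 to 154.9, 35.2 to 60.4, 11.3 to 25.4 and 2.13 to 9.99 CPM. The WT means thus depend on WT mouse 5, and striatal content was not even among the mice. When a striatal marker score took the place of the surrogate variables in the model, the log2 fold change of *Rnf169* was 0.39 (SE 0.05).

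**Figure D2:**
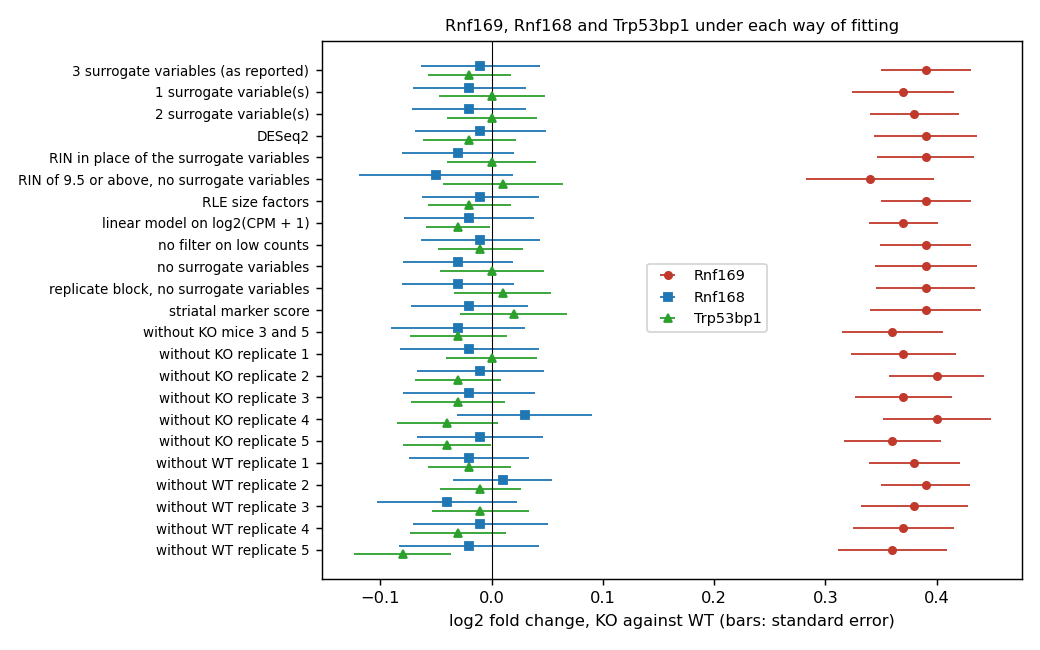
Log2 fold changes of *Rnf169*, *Rnf168* and *Trp53bp1*, KO against WT, under the reported model and 22 alternatives; points are estimates and bars standard errors. *Rnf169* lies between 0.34 and 0.40, *Rnf168* between -0.05 and 0.03, and *Trp53bp1* between -0.08 and 0.02.

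None of the 6 other genes passed the test at an adjusted p of 0.05. Of all genes tested, 0.844% passed (121 of 14344), 0.600% higher in KO and 0.244% lower. At an unadjusted p under 0.05, 1 of the 6 was counted, *Usp7*, against 1522 of the 14344. DESeq2 also called 0 of the 6.

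*Rnf168* encodes the ligase that ubiquitinates H2A and H2AX (chr16:32277459-32301434, plus strand). In KO mice 1 to 5 it stood at 52.1, 51.7, 51.3, 48.7 and 51.3 CPM, and in WT mice 1 to 5 at 50.2, 57.3, 49.8, 52.3 and 50.3 CPM. The ranges overlapped, with the lowest value in KO mouse 4 and the highest in WT mouse 2. Its log2 fold change was -0.01 (SE 0.05), with a 95% confidence interval from -0.13 to 0.10 (edgeR quasi-likelihood adjusted p = 0.962).

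*Rnf8*, which encodes the ligase that acts before RNF168 (chr17:29614790-29644991, plus strand), was the least abundant of the 7 genes, with 133 to 221 reads per library. Its levels were 5.31, 4.16, 5.40, 4.40 and 4.27 CPM in KO mice 1 to 5 and 5.38, 4.55, 4.48, 4.62 and 4.52 CPM in WT mice 1 to 5. Every WT value lay inside the KO range, which was wider. For *Rnf8* the fitted log2 fold change was 0.06 (SE 0.13), with an interval from -0.21 to 0.33 (edgeR quasi-likelihood adjusted p = 0.922). At this depth the interval left room for differences of that size in either direction. Exons of *Rnf8* overlap those of *Gm28043* on the same strand over 13.2% of their length, so its counts are uncertain there.

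*Mdc1* encodes the scaffold that links phosphorylated H2AX to RNF8 (chr17:35841515-35859670, plus strand). It was measured at 16.5, 18.5, 18.6, 21.1 and 21.1 CPM in KO mice 1 to 5 and at 21.9, 20.4, 18.04, 18.6 and 20.7 CPM in WT mice 1 to 5. The KO values reached lower than the WT values, in mouse 1 alone, and otherwise lay among them. For *Mdc1* the fitted log2 fold change was -0.07 (SE 0.07, interval from -0.22 to 0.09, edgeR adjusted p = 0.825). Its direction differed between the RIN classes, with a log2 difference of -0.17 between 3 KO and 3 WT libraries of high RIN and of 0.10 between the 2 and 2 of low RIN.

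*Trp53bp1* encodes 53BP1, which reads the mark that RNF168 sets and for which RNF169 competes (chr2:121193281-121271407, minus strand). Its levels in KO mice 1 to 5 were 116.6, 119.1, 127.7, 116.9 and 124.3 CPM. In WT mice 1 to 5 they were 122.6, 116.3, 130.2, 121.5 and 112.3 CPM. The WT range held every KO value. Its fitted log2 fold change was -0.02 (SE 0.04), with an interval from -0.10 to 0.06 (edgeR quasi-likelihood adjusted p = 0.911). Libraries of low RIN stood 0.10 higher on the log2 scale than those of high RIN, averaged over the genotypes. Exons of *Trp53bp1* overlap *Tubgcp4* on the opposite strand over 15.0% of their length, and *Tubgcp4* itself had 37.4 CPM in KO and 37.9 CPM in WT.

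*Herc2* and *Usp7* encode regulators of the pathway that also act outside it. *Herc2*, a very large ligase (chr7:56050196-56231800, plus strand), was measured at 373.6, 358.0, 381.0, 365.1 and 370.4 CPM in KO mice 1 to 5 and at 352.8, 343.2, 380.2, 373.8 and 342.1 CPM in WT mice 1 to 5. The ranges overlapped, with the 3 lowest values in WT mice 1, 2 and 5, which were the WT mice of high RIN. Among libraries of high RIN, KO mice had 358.0 to 373.6 CPM and WT mice 342.1 to 352.8 CPM. Among those of low RIN, KO mice had 370.4 to 381.0 CPM and WT mice 373.8 to 380.2 CPM. Low RIN libraries stood 0.08 higher on the log2 scale, averaged over the genotypes. *Herc2* had a log2 fold change of 0.04 (SE 0.03, interval from -0.03 to 0.10, edgeR adjusted p = 0.759).

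*Usp7* (chr16:8689595-8792308, minus strand) stood at 176.4, 177.9, 179.0, 167.6 and 166.9 CPM in KO mice 1 to 5 and at 183.0, 183.3, 186.6, 184.5 and 174.7 CPM in WT mice 1 to 5. WT mouse 5 alone lay within the KO range, and the other 4 WT mice lay above it. The log2 fold change of *Usp7* was -0.07 (SE 0.03, interval from -0.14 to -0.0015), with an unadjusted p of 0.0456 (edgeR quasi-likelihood adjusted p = 0.462), so the difference did not pass. It was negative in all 22 alternatives, from -0.10 to -0.05, and passed in 0 of them.

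To compare levels between genes, CPM was divided by the length of each gene's merged exons. In WT the order of these length-scaled levels was *Usp7* (23.5 ± 0.585 CPM per kb), *Herc2* (22.2 ± 1.09), *Rnf168* (11.7 ± 0.702), *Rnf169* (9.29 ± 0.207), *Trp53bp1* (8.51 ± 0.481), *Mdc1* (2.69 ± 0.213) and *Rnf8* (0.402 ± 0.0324; SD, n = 5). The ranges of *Usp7* and *Herc2* overlapped, as did those of *Rnf169* and *Trp53bp1*, and the other neighbours in the order did not. In KO, *Rnf169* stood at 12.2 ± 0.695 and *Rnf168* at 11.4 ± 0.299 CPM per kb. The order of these paralogues thus differed between the genotypes, since *Rnf168* was above *Rnf169* in 5 of 5 WT mice and in 1 of 5 KO mice, KO mouse 2. Such a switch was not particular to this pair. *Usp7* was likewise above *Herc2* in 5 of 5 WT mice and in 1 of 5 KO mice, and neither of those genes passed the test. Reads fall unevenly along a gene and not every annotated exon is used, so these ratios are approximate.

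The ratio of *Rnf169* to *Rnf168* on this length-scaled level was 1.06, 0.970, 1.11, 1.07 and 1.12 in KO mice 1 to 5 and 0.841, 0.723, 0.854, 0.773 and 0.810 in WT mice 1 to 5. The KO and WT ratios did not overlap. The ratio of *Rnf169* to *Trp53bp1* was 1.42 ± 0.0605 in KO, with a range of 1.34 to 1.497, and 1.09 ± 0.0482 in WT, with a range of 1.04 to 1.15 (SD, n = 5 each). Its ratios to *Rnf8*, *Mdc1*, *Herc2* and *Usp7* did not overlap between the genotypes either. These ratios contain the difference that selected *Rnf169*, and are given as a description.

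**Figure D3:**
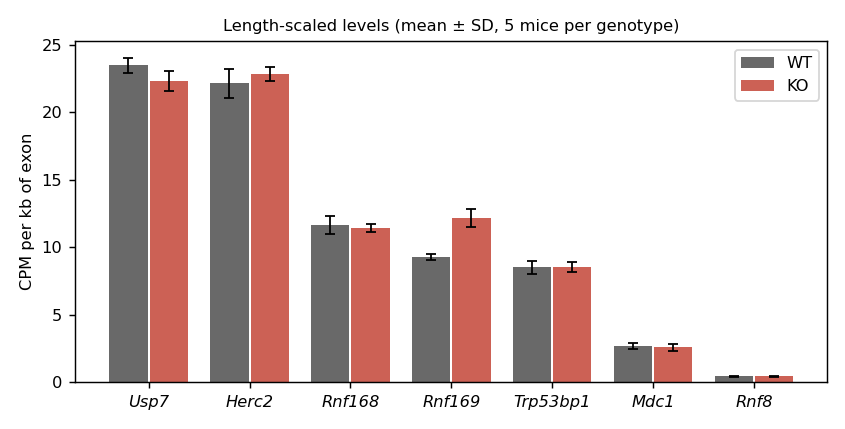
Mean CPM per kb of merged exons of the 7 genes in WT (grey) and KO (red) mice, with SD over 5 mice per genotype. *Rnf169* stands at 9.29 in WT and 12.2 in KO, below *Rnf168* in WT (11.7) and above it in KO (11.4).

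Whether *Rnf169* varied together with the other genes from mouse to mouse was asked after the mean of each genotype was subtracted, which removes the KO-WT difference. Over 10 mice, *Trp53bp1* had a Pearson r of 0.56 (p = 0.0622) and a Spearman rho of 0.60 (p = 0.0743), with adjusted p-values of 0.275 and 0.446 over the 6 genes (exact two-sided permutation within genotype). *Rnf8* had an r of 0.50 (rho 0.35) and *Herc2* an r of 0.43 (rho 0.41), with adjusted p-values for r of 0.521 and 0.275 by the same exact permutation. *Rnf168*, *Mdc1* and *Usp7* had r values of 0.02, 0.01 and 0.03 and rho values of -0.13, 0.02 and 0.04. None of the 6 passed after adjustment. With single mice left out, r for *Rnf8* was 0.81 without KO mouse 5, 0.29 without KO mouse 2 and 0.33 without KO mouse 3, and r for *Usp7* ran from -0.20 (without KO mouse 3) to 0.39 (without KO mouse 2). Without KO mice 2 and 5, the farthest from the median of *Rnf169*, r was 0.66 for *Trp53bp1*, 0.69 for *Rnf8*, 0.39 for *Herc2*, 0.77 for *Usp7*, 0.12 for *Rnf168* and -0.39 for *Mdc1*.

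Among the genes whose levels followed *Rnf169* most closely on this measure were *Racgap1*, *Sorbs2*, *Pcdhac2*, *Ten1*, *Tmem8*, *Erg*, *Ncam2*, *Gpr26* and *Orai2*, with Pearson r from 0.92 to 0.90 over the 10 mice. They were picked for these high values, and the mice share libraries and RIN, so these r values are a description. *Sorbs2*, which encodes a synaptic and cytoskeletal adaptor, had 272.2 ± 24.1 CPM in KO and 255.9 ± 13.7 CPM in WT (SD, n = 5 each). None of these 9 passed edgeR's quasi-likelihood test between the genotypes.

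The other genes of the response were taken from 8 lists by role, with 78 genes in all. Of these, 75 were in the table and 73 were tested. *Shld3*, *Paxx* and *1110034G24Rik* (*Shld1*) were not analysed here, and *Pagr1a* and *Usp44* did not pass the filter on low counts. None of the 73 passed the test in either direction, beside 0.844% of all genes tested, and DESeq2 also called 0. At an unadjusted p under 0.05, 1 of the 73 was counted, against 1522 of the 14344 genes tested. The median log2 fold change of the 73 was -0.01, with 32 positive and 41 negative, and the median of all genes tested was -0.0044.

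Breaks are sensed by the MRE11 complex and marked by ATM, a kinase that phosphorylates H2AX. *H2afx*, which encodes H2AX, had 31.9 ± 1.24 CPM in KO and 31.9 ± 2.36 CPM in WT (SD, n = 5 each). *Atm* had 24.6 ± 1.94 CPM in KO and 22.7 ± 0.907 CPM in WT, and *Mre11a* had 13.3 ± 1.26 and 13.5 ± 0.608 CPM. *Kat5*, which encodes the acetyltransferase TIP60 that activates ATM, had 52.8 ± 2.08 CPM in KO and 54.9 ± 1.61 CPM in WT. The ranges of the genotypes overlapped for each of these genes, and the largest log2 fold changes among the 7 genes of this list were those of *Chek2* (-0.53, SE 0.33) and *Nbn* (-0.15, SE 0.07). *H2afx* and *Atm* lie on chromosome 9 at 4.32 and 4.60 Mb from *Zbtb16*, *Pias1* at 14.0 Mb, *Usp3* at 17.7 Mb and *Mre11a* at 33.8 Mb. Each of these 5 genes had overlapping ranges and did not pass.

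Among the 9 partners of RNF8 in Lys63-linked ubiquitination, 4 had a positive and 5 a negative log2 fold change. *Ube2n*, which encodes the conjugating enzyme UBC13, had 169.5 ± 7.57 CPM in KO and 175.8 ± 6.13 CPM in WT. *Vcp*, which encodes the segregase that removes L3MBTL1 and other proteins from chromatin, had 308.1 ± 18.5 and 307.8 ± 11.6 CPM. The largest log2 fold changes were those of *Ube2v1* (0.28, SE 0.19), which had 2.17 CPM in KO and 1.96 CPM in WT, and *Ube2e2* (0.09, SE 0.05). The annotation tags *Ube2v1* as overlapping another locus, so its counts are uncertain.

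The BRCA1-A complex binds Lys63-linked chains through RAP80 (*Uimc1*) and limits resection of the ends. Its 7 genes had log2 fold changes from -0.29 (*Brca1*, SE 0.23) to 0.13, with 1 positive and 6 negative. *Babam1* had 56.2 ± 2.52 CPM in KO and 58.2 ± 1.87 CPM in WT, and *Brcc3*, which encodes the deubiquitinase of the complex, had 31.3 ± 1.33 and 33.0 ± 3.54 CPM. *Brca1* was near 1.8 CPM in both genotypes, with 1.79 ± 0.692 CPM in KO and 1.81 ± 0.262 CPM in WT.

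Effectors of 53BP1 carry out the protection of ends that favours end joining. Of 9 listed, 6 were tested, with log2 fold changes from -0.18 (*Mad2l2*, SE 0.13) to 0.03 (*Paxip1*, SE 0.05). *Paxip1*, which encodes PTIP, had 51.1 ± 2.15 CPM in KO and 49.2 ± 1.90 CPM in WT. *Nudt16l1*, which encodes TIRR, a protein that blocks the binding of 53BP1 to chromatin, had 40.2 ± 1.38 and 39.2 ± 1.16 CPM. *Dclre1c*, which encodes the nuclease Artemis, had a log2 fold change of -0.16 (SE 0.12).

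53BP1 also needs methylated histone H4 Lys20, and 6 genes whose products write or bind this mark were tested. *Kmt5b*, a writer, had 61.6 ± 3.77 CPM in KO and 59.1 ± 4.48 CPM in WT, and *Kmt5c*, another writer, had 9.44 ± 0.519 and 9.77 ± 1.33 CPM. *Kdm4b*, which encodes a demethylase that covers the mark, had 67.1 ± 2.85 and 67.9 ± 3.27 CPM. *L3mbtl1*, a reader displaced from chromatin, had the largest log2 fold change, -0.15 (SE 0.09).

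The list of proteins that limit RNF168 or remove ubiquitin held 14 genes, of which 13 were tested, and it held the 1 gene of the 73 with an unadjusted p under 0.05. *Otub1*, which encodes an inhibitor of UBC13, had 167.8, 161.9, 175.0, 172.8 and 186.7 CPM in KO mice 1 to 5. In WT mice 1 to 5 it had 168.7, 148.2, 161.5, 158.5 and 153.1 CPM. WT mouse 1 lay within the KO range, and the other WT values lay below it. The log2 fold change of *Otub1* was 0.11 (SE 0.04), with an unadjusted p of 0.00698 (edgeR quasi-likelihood adjusted p = 0.222), and over the 22 alternatives the adjusted p ran from 0.0933 to 0.819. *Trip12*, which encodes a ligase that lowers RNF168 protein, had 227.9 ± 10.4 CPM in KO and 225.8 ± 3.61 CPM in WT. *Usp3*, which encodes a deubiquitinase of H2A, had a log2 fold change of 0.12 (SE 0.09), and *Usp34*, which encodes one that stabilizes RNF168, had 205.9 ± 7.86 and 207.0 ± 3.03 CPM.

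Of the 9 end joining genes tested, 5 had a positive and 4 a negative log2 fold change. *Parp1*, whose product detects strand breaks, had 94.4 ± 2.87 CPM in KO and 93.2 ± 4.87 CPM in WT, and *Prkdc*, which encodes the kinase DNA-PKcs, had 29.9 ± 4.09 and 29.3 ± 2.7 CPM. The largest differences were those of low genes, *Nhej1* (log2 fold change 0.27, SE 0.33) and *Polm* (-0.24, SE 0.16).

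Of the 16 homologous recombination genes, 9 had a positive and 7 a negative log2 fold change. *Rpa1*, which encodes a subunit that coats single-stranded DNA, had 49.3 ± 3.97 CPM in KO and 45.2 ± 2.37 CPM in WT. *Rad51d* had 17.8 ± 0.990 and 18.7 ± 1.32 CPM. *Brca2*, which encodes a mediator of strand exchange, had a log2 fold change of 0.34 (SE 0.17). Genes of dividing cells (*Mki67*, *Top2a*, *Cdk1*, *Ccnb1*, *Aurkb*) summed to 3.16 to 17.4 CPM in KO and 6.29 to 12.1 CPM in WT.

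**Figure D4:**
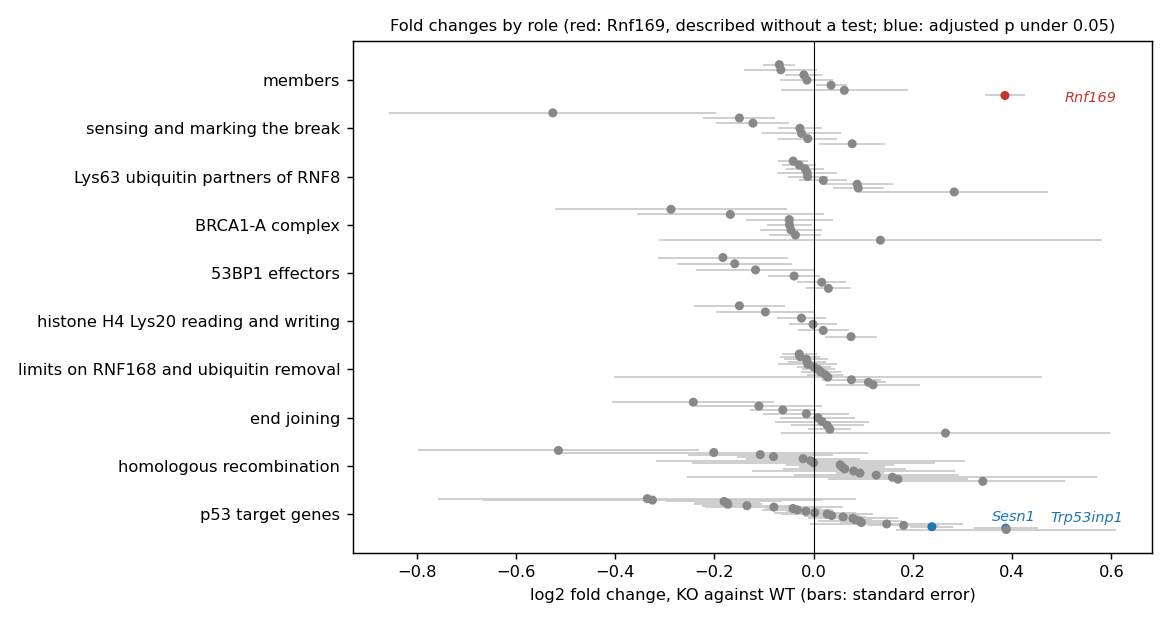
Log2 fold change, KO against WT, of the 7 genes, of the 73 tested genes in 8 role lists and of 23 p53 target genes; each point is a gene and bars give the standard error. *Rnf169* (red, 0.39) stands apart from the other 6 genes (-0.07 to 0.06), and *Sesn1* and *Trp53inp1* (blue) passed the test.

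Genes that p53 switches on after DNA damage were taken as a readout of that response. Of 24 listed, 23 were tested, and 2 rose and 0 fell, beside 0.600% of all genes tested higher and 0.244% lower. At an unadjusted p under 0.05 (edgeR quasi-likelihood), 7 of the 23 were counted, in both directions, against 1522 of the 14344. The median log2 fold change of the 23 was 0.03, with 13 positive and 10 negative. *Trp53inp1*, whose product takes part in autophagy and cell death, had 25.9, 22.6, 21.1, 30.7 and 22.6 CPM in KO mice 1 to 5. In WT mice 1 to 5 it had 19.7, 25.2, 17.1, 16.2 and 24.97 CPM. The groups overlapped, since WT mice 2 and 5 lay among the KO mice. Its log2 fold change was 0.39 (SE 0.06, edgeR quasi-likelihood adjusted p = 0.00753).

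*Sesn1*, which encodes a leucine sensor that restrains mTORC1, had 84.9, 74.2, 75.8, 87.0 and 70.4 CPM in KO mice 1 to 5 and 77.5, 80.8, 62.6, 63.4 and 74.1 CPM in WT mice 1 to 5. The groups overlapped widely. Its log2 fold change was 0.24 (SE 0.04, edgeR quasi-likelihood adjusted p = 0.0126). Both calls rest on the surrogate variables in the model. Without them the log2 fold change of *Trp53inp1* was 0.25 (edgeR adjusted p = 0.676) and that of *Sesn1* was 0.13 (edgeR adjusted p = 0.728). Over the 22 alternatives these values ran from 0.18 to 0.58 for *Trp53inp1* and from 0.08 to 0.31 for *Sesn1*. *Trp53inp1* was called in 13 and *Sesn1* in 10 of the 22 alternatives. When a mouse was left out, *Trp53inp1* lost its call without KO mouse 4 (edgeR adjusted p = 0.0555), and *Sesn1* lost it without KO mouse 1 (0.0872), KO mouse 3 (0.0695), WT mouse 3 (0.141) or WT mouse 4 (0.111). *Tigar*, another gene of the list, was called lower in KO without KO mouse 4 or KO mouse 5.

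Of the most used readouts of p53, *Cdkn1a*, which encodes the cell cycle inhibitor p21, had 33.9 ± 10.4 CPM in KO and 35.3 ± 1.45 CPM in WT, *Mdm2*, which encodes the ligase of p53, had 51.1 ± 4.13 and 50.8 ± 3.74 CPM, and *Bax*, which promotes apoptosis, had 27.6 ± 1.55 and 28.3 ± 0.364 CPM. None of these 3, which were named after their values were seen, passed. *Plk2* and *Zmat3*, the most abundant genes of the list, had log2 fold changes of 0.10 and 0.08 that did not pass. *Btg2* had 20.4 ± 10.4 CPM in KO and 11.7 ± 5.07 CPM in WT. *Aen*, a nuclease gene, had 19.4 to 21.98 CPM in KO and 22.1 to 25.7 CPM in WT, ranges that did not overlap, with a log2 fold change of -0.17 (edgeR quasi-likelihood adjusted p = 0.346).

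The genes beside *Rnf169* were examined to see whether the region moved as a whole. Of the 5 nearest tested protein-coding genes on each side, 4 had a positive and 6 a negative log2 fold change. *Xrra1*, at 2.43 kb, had 0.978 ± 0.501 CPM in KO and 1.03 ± 0.205 CPM in WT, and *Pold3*, which encodes a subunit of DNA polymerase delta and lies at 101.7 kb on the side of the *Rnf169* promoter, had 24.9 ± 1.77 and 25.6 ± 1.28 CPM. *Spcs2*, *Neu3*, *Slco2b1* and *Tpbgl* towards the chromosome start and *Lipt2*, *P4ha3* and *Ppme1* on the other side had log2 fold changes from -0.33 (*P4ha3*) to 0.06 (*Ppme1*) and did not pass.

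*Pgm2l1*, a gene for an enzyme that makes glucose 1,6-bisphosphate in brain (chr7:100227394-100278868), lies 246.9 kb from *Rnf169* and was the 1 of these 10 that rose, beside 0.600% of all genes tested that were higher in KO. It had 754.2, 706.4, 829.8, 761.0 and 772.4 CPM in KO mice 1 to 5 and 629.0, 658.1, 720.8, 694.2 and 621.1 CPM in WT mice 1 to 5. KO mouse 2 lay below WT mouse 3, and the other KO mice lay above every WT mouse. The log2 fold change was 0.20 (SE 0.04, edgeR quasi-likelihood adjusted p = 0.0308). It was called in 10 of the 22 alternatives, with edgeR, DESeq2 or linear model adjusted p-values from 0.000879 to 0.415. The call was lost without KO mouse 3 (edgeR adjusted p = 0.144), KO mouse 4 (0.1503), WT mouse 3 (0.0991), WT mouse 4 (0.0819) or WT mouse 5 (0.246), where its log2 fold change was 0.13.

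**Figure D5:**
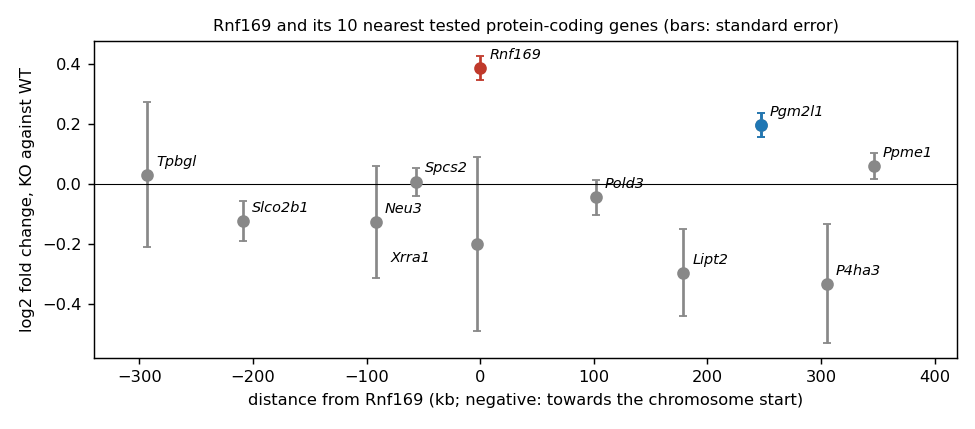
Log2 fold change, KO against WT, of *Rnf169* (red) and of the 5 nearest tested protein-coding genes on each side, against their distance in kb; bars give the standard error and blue marks a gene that passed the test. *Xrra1*, the nearest at 2.43 kb, stands at -0.20, and *Pgm2l1* at 246.9 kb stands at 0.20.

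Among 68 tested genes whose symbol starts with Rnf, a set added after the values were seen, the median log2 fold change was 0.01. *Rnf169* had the fourth largest absolute value of them, after *Rnf17* (-1.21), *Rnf39* (-0.51) and *Rnf223* (-0.42). *Rnf39* was the 1 other gene of the 68 that passed, beside 0.844% of all genes tested called and 0.244% called lower, so this count is no result about the set. *Rnf39* was lower in KO at 4.69 ± 1.38 CPM against 7.53 ± 1.42 CPM in WT (edgeR quasi-likelihood adjusted p = 0.0499). This call was lost whichever of the 10 mice was left out, with edgeR adjusted p-values from 0.0548 to 0.241. *Rnf17* had 0.469 ± 0.217 CPM in KO and 0.869 ± 0.389 CPM in WT and did not pass.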

How the data were processed

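Total RNA from the PFC of 5 KO and 5 WT mice was made into stranded mRNA libraries and sequenced as 101-base paired reads. Per the labels and the study's methods, the authors used STAR (2.7.1a) for alignment to mm10, dropped multi-mapped reads, and counted unique reads on the exons of Gencode M21 genes with HTSeq (0.9.1). The deposited values are raw counts of 22000 genes, without normalization. Whether strand was used in counting is not given in the sources used here.

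Genotypes were tested with edgeR (4.0.16, R 4.3.3) by the quasi-likelihood test, after TMM normalization and the filterByExpr filter on low counts, with 3 surrogate variables from sva (3.50.0) on log2(CPM + 1), and Benjamini-Hochberg adjustment at 0.05 over all 14344 genes kept. CPM values are TMM scaled. Alternatives used DESeq2 (1.42.0), limma (3.58.1) and those named with the limits. No 2 libraries agreed within sampling noise (lowest chi-square per degree of freedom 5.69). Each mouse was 1 replicate. Positions come from Gencode M21. *Gm28043* was not analysed here. A few named items are not reported here. Tables and figures used Python 3.11.15, pandas 2.3.3, scipy 1.17.1 and matplotlib 3.10.9.

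The 7 genes, the role lists and the tests were chosen with earlier results of these data known. The genes named are the 7, list genes that passed or did not overlap, the 2 most abundant and the 2 with the largest log2 fold change of each list, those on chromosome 9, the 5 neighbours on each side, the 10 most alike and *Zbtb16*.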

Additional observations from a re-analysis of the deposited data

Results flagged for a closer look

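Of 116 sets of 5 CPM values examined for a single distant mouse (58 genes, each genotype), 5 held one whose gap to the nearest other mouse was over 0.71 of the whole range, and about 1 in 20 sets would by chance. In 2 of the 7 genes, KO mouse 4 was low for *Rnf168* (48.7 CPM, others 51.3 to 52.1) and WT mouse 1 was high for *Rnf8* (5.38 CPM, others 4.48 to 4.62). WT mouse 4 was high for *Btg2* (20.5 CPM, others 8.43 to 11.3) and for *Ppme1* (323.3 CPM, others 284.1 to 295.0). KO mouse 5 was high for *Vcp* (340.0 CPM, others 293.9 to 305.1).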

How the results depend on the processing

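Over 22 alternatives the log2 fold change of *Rnf169* stayed between 0.34 and 0.40, and 0 of the 6 other genes and 0 of the 73 double-strand break genes were called in each. Genes called over the whole table numbered 121 as reported, 34 and 57 with 1 and 2 surrogate variables, 30 with none, 38 with RIN in their place, 16 with the striatal marker score in their place (chosen after seeing the data), 24 with the replicate block, 2 with a linear model on log2(CPM + 1), 1 with libraries of high RIN and 233 with DESeq2. When a mouse was left out it ran from 39 (WT mouse 3) to 248 (KO mouse 2), with 59, 54 and 65 without KO mouse 1, KO mouse 3 and WT mouse 4. The 2 calls among p53 target genes became 0 with 0, 1 or 2 surrogate variables, RIN, the high RIN libraries, the linear model, the replicate block or the striatal score, and 1 to 3 with a mouse left out, where 1 (*Trp53inp1*) remained without KO mouse 1, KO mouse 3, WT mouse 3 or WT mouse 4, and *Tigar* was added, lower in KO, without KO mouse 4 or KO mouse 5. The correlation of *Rnf169* with *Herc2* ran from 0.31 to 0.62 with a mouse left out, and passed without WT mouse 4 alone (r = 0.62, adjusted p = 0.0417, exact permutation). That with *Rnf8* ran from 0.29 (without KO mouse 2) to 0.81 (without KO mouse 5), that with *Usp7* from -0.20 to 0.39, and neither passed. The causes were not tested. Mice with the same number did not pair (correlations of their deviations from -0.11 to 0.17, and 4 of 10 mice closest to their own number), so the replicate block shares a number only. Except for these, no call on the 7 genes changed. The 5 mice per genotype limit precision, and low genes such as *Rnf8* have wide intervals.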
